A study of Drosophila melanogaster with 9 samples.

Results

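Cultured cells of the Drosophila melanogaster line S2 were compared after depletion of the transcription factor NELF and after a mock treatment. The comparison took the 3 arrays labelled as NELF depleted and the 3 labelled as LacZ treated, 6 of the 9 arrays of the study. In the NELF dsRNA group, double-stranded RNA (dsRNA) directed at the NELF-B and NELF-E subunits was left on the cells for 72 h. In the LacZ dsRNA group, dsRNA against bacterial beta-galactosidase, which has no counterpart in these cells, was left on them for the same 72 h. The difference between these groups therefore holds the target of the dsRNA, while the presence of dsRNA and its duration were shared. A group of 3 arrays of untreated cells entered the estimate of the spread and is given beside the comparison. The labels name no other genetic change or treatment in any group. S2 cells, a line from embryonic cells with features of blood cells, were grown in serum-supplemented medium as the Drosophila Genomics Resource Center recommends.

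NELF, the negative elongation factor, is a complex of 4 kinds of subunit in flies, NELF-A, NELF-B, NELF-D (named TH1) and NELF-E. It binds RNA polymerase II shortly after the start of transcription and, with the factor DSIF, holds the polymerase in a paused state near the promoter. The kinase P-TEFb, made of Cdk9 and cyclin T, releases the polymerase into productive elongation. Pausing is known at heat shock genes and at many genes of signalling, development and immunity, and S2 cells respond to microbial products with antimicrobial peptides, phagocytosis and clotting factors as hemocytes do.

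Levels are log2 intensities of the probe set with the highest mean for each gene, and the values of a group are given in the order of arrays 1, 2 and 3. The 6 arrays held values for 13854 to 14196 probe sets, of which 8029 to 8059 lay above a detection limit of 3.77, set from control probe sets. Correlation coefficients between arrays ran from 0.955 to 0.971 within the NELF dsRNA, LacZ dsRNA and untreated groups and from 0.948 to 0.966 between NELF dsRNA and LacZ dsRNA arrays. Of 12 plasmatocyte markers, 8 lay above the limit on all 3 NELF dsRNA arrays and 9 on all 3 LacZ dsRNA arrays, while the defining markers NimC1 and Sr-CI lay below it. None of the 4 muscle, 3 fat body, 2 gut and 4 germline markers with a probe set lay above the limit on all 3 arrays of either group, though sls, Lsp2, betaTry and vas did on 1 or 2 arrays. Of 3 neuron markers, elav lay above it throughout, at 5.90 to 6.65 after NELF dsRNA and 5.74 to 6.80 after LacZ dsRNA. The labels do not state whether the 3 samples within a group were separate cultures, so a p-value here reflects only how much these samples varied, and that variation could be technical.

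Both targeted transcripts fell. NELF-B, a scaffold subunit, had 4.76, 4.83 and 4.54 on the NELF dsRNA arrays, against 7.41, 7.47 and 7.63 on the LacZ dsRNA arrays. The groups lay far apart, and NELF-B fell 6.92-fold (SE 0.15 for a log2 change of -2.79, limma adjusted p = 2.97e-08). The RNA-contacting subunit gene Nelf-E had 2.52, 3.65 and 3.82 after NELF dsRNA, against 7.98, 7.81 and 7.48 after LacZ dsRNA. Only the third NELF dsRNA array lay above the detection limit, which makes the fall of Nelf-E at least 15.7-fold by means (limma adjusted p = 8.93e-08). TH1, which was not targeted, had 8.27, 8.10 and 7.93 after NELF dsRNA, against 8.06, 8.26 and 8.14 after LacZ dsRNA. Its groups overlapped and the difference did not pass the test (log2 change -0.05, SE 0.10, limma adjusted p = 0.876). Nelf-A was not analysed here.

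Of 12975 probe sets tested, 592 passed the limma test at an adjusted p of 0.05 (4.56%), 352 lower after NELF dsRNA (2.71%) and 240 higher (1.85%). Over all named genes, 827 of 9102 tested were lower and 709 higher at an unadjusted p under 0.05 by limma. At an adjusted p of 0.05, 475 of the 9102 passed (5.22%). Of these 300 were lower after NELF dsRNA (3.3%) and 175 were higher (1.92%), and such genes are called lower or higher below. The falls were larger than the rises. The median fall was 1.74-fold (1.72-fold with dim genes set at the detection limit), and the median rise was 1.36-fold. With dim genes at the limit, 12 falls and 1 rise reached 4-fold, 100 falls and 23 rises lay between 2-fold and 4-fold, and 106 falls and 114 rises were under 1.5-fold. The arrays of the 2 groups did not overlap for 931 lower and 803 higher genes of 7421 with values on all 6 (12.5% and 10.8%), and among the called genes for 295 of the 300 falls and 172 of the 175 rises. Without NELF dsRNA array 2 the number of rises was 110, and over each of the 6 arrays left out in turn it ran from 110 to 245 and the falls from 218 to 330. Without a trend of the variance with the level, 131 genes were lower and 50 higher.

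The untreated cells stood beside the LacZ dsRNA cells. Against untreated cells, with the same NELF dsRNA arrays, 389 of 8709 genes were lower (4.47%) and 249 higher (2.86%). LacZ dsRNA itself left 1 gene lower (0.0115%) and 6 higher (0.0689%) than in untreated cells. Both comparisons used the same NELF dsRNA arrays, so for called genes a shared direction was largely set by their choice and is no separate support. The mean of the NELF dsRNA arrays lay below the untreated mean for 293 of the 300 genes called lower and above it for 172 of the 175 called higher. Among the exceptions were Sgt, which encodes a co-chaperone with tetratricopeptide repeats, and schlank, which encodes ceramide synthase. Sgt had 10.67, 10.74 and 10.77 after NELF dsRNA, 10.25, 10.41 and 10.33 after LacZ dsRNA and 10.69, 10.79 and 10.72 in untreated cells. For schlank the values were 9.76, 9.76 and 9.55 after NELF dsRNA, 10.04, 10.15 and 10.16 after LacZ dsRNA and 9.59, 9.56 and 9.59 in untreated cells. In both genes the LacZ dsRNA arrays stood apart, and NELF dsRNA did not differ past the threshold from untreated cells (limma adjusted p = 0.96 for Sgt and 0.49 for schlank). Both lost their call between NELF dsRNA and LacZ dsRNA without the variance trend.

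**Figure D1:**
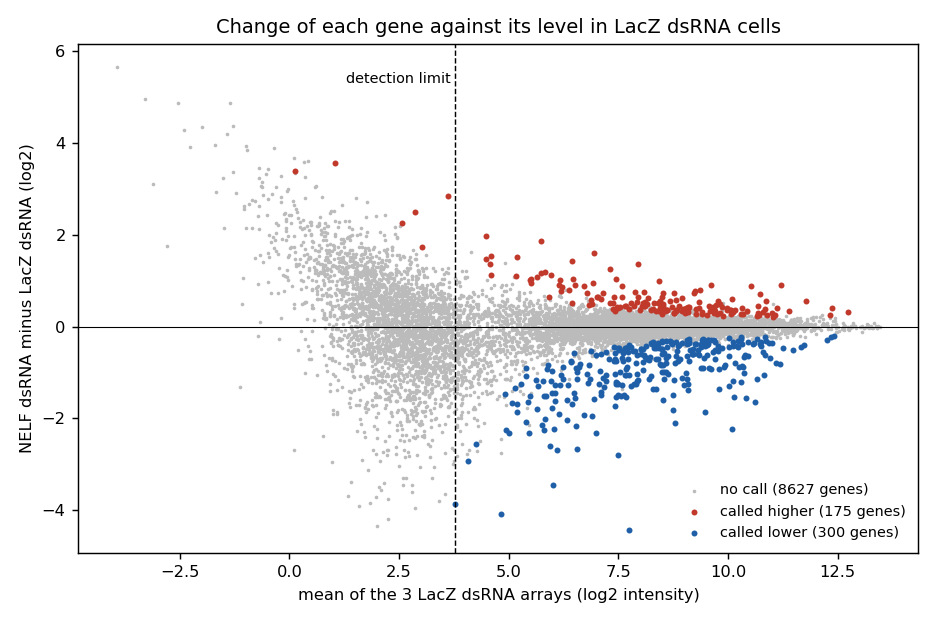
Each point is 1 of 9102 genes, placed by its mean log2 intensity on the 3 LacZ dsRNA arrays (horizontal axis) and by the log2 change of NELF dsRNA minus LacZ dsRNA (vertical axis). The 300 genes called lower reach further from 0 than the 175 called higher, and almost all called genes lie right of the detection limit at 3.77, while the dim genes left of it scatter widely without a call.

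Calls were then counted by the starting level in LacZ dsRNA cells. Of the 2891 genes with a LacZ dsRNA mean below the detection limit, 6 were called higher (0.208%) and 0 lower by limma, with 84 higher and 45 lower at an unadjusted p under 0.05. Their median standard error was 0.952 on the log2 scale. The 6211 genes above the limit were divided into 4 classes of equal size by that mean. From the lowest class to the highest, the median standard error was 0.259, 0.120, 0.0931 and 0.0751.

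Calls became more frequent with the starting level, and their sizes became smaller. In the lowest class, from 3.77 to 6.64, 62 of 1553 genes were lower (3.99%) and 25 higher (1.61%). The class up to 7.91 had 66 lower (4.25%) and 29 higher (1.87%) of 1553, and the class up to 9.09 had 76 lower (4.9%) and 57 higher (3.67%) of 1552. In the highest class, up to 13.5, 96 of 1553 were lower (6.18%) and 58 higher (3.73%). The median fall in these classes, with dim genes set at the limit, was 2.42-fold, 2.06-fold, 1.57-fold and 1.41-fold from low to high. The median rise was 2.10-fold, 1.49-fold, 1.34-fold and 1.28-fold.

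Calls of at least 1.5-fold went the other way: 61 lower and 24 higher in the lowest class above the limit, 50 and 14 in the next, 45 and 10 in the third, and 41 and 8 in the highest. Falls outnumbered rises in each class above the limit by either rule. The LacZ dsRNA mean enters both the class and the difference, so the classes were also set from the untreated arrays, with 72 genes lacking a value there. The falls then numbered 1, 51, 74, 83 and 91 and the rises 6, 24, 30, 50 and 65, from below the limit to the highest class. Without the variance trend the falls were 3, 24, 33, 33 and 38 and the rises 8, 14, 10, 10 and 8 in the classes from LacZ dsRNA levels. The rise in the count of calls with the level was thus seen for falls under both fits, and not for rises without the trend.

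**Figure D2:**
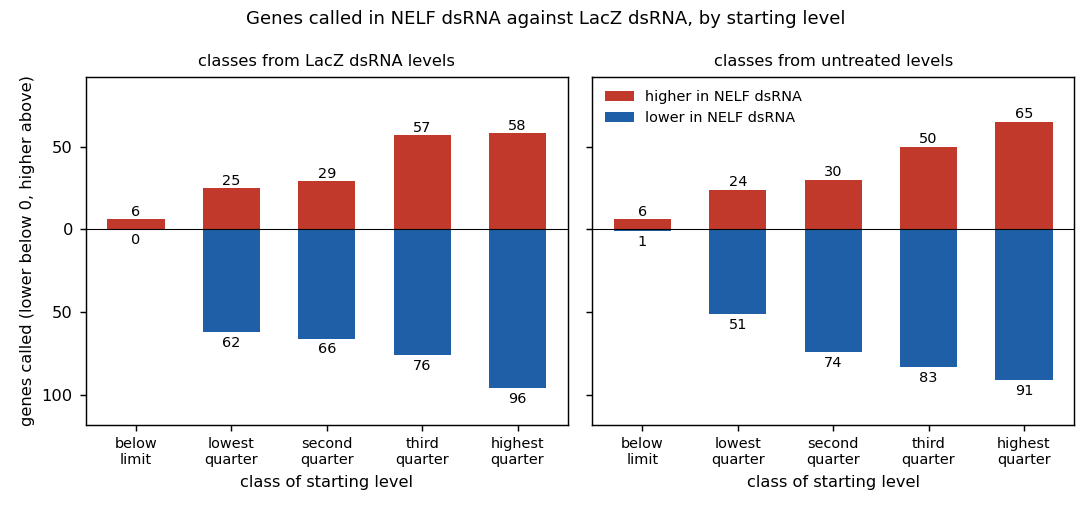
Bars count the genes called higher (above 0) and lower (below 0) in NELF dsRNA against LacZ dsRNA in 5 classes of starting level, from LacZ dsRNA arrays on the left and untreated arrays on the right. Falls outnumber rises in every class above the detection limit in both panels, and the counts grow from 62 falls and 25 rises in the lowest class above the limit to 96 and 58 in the highest on the left.

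Below the limit, bbg, which encodes a PDZ-domain protein of cell junctions, had 6.57, 6.62 and 6.21 after NELF dsRNA, against 3.08, 3.87 and 3.92 after LacZ dsRNA. The groups did not overlap, 2 of the LacZ dsRNA arrays lay above the limit, and by means bbg was at least 6.13-fold higher (limma adjusted p = 0.000198). Egfrap was at least 2.96-fold higher by means, with 4.79, 5.93 and 5.31 after NELF dsRNA, against 2.70, 2.07 and 3.79 after LacZ dsRNA. Without NELF dsRNA array 2 the call of Egfrap was lost, and it did not pass against untreated cells (limma adjusted p = 0.53).

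In the lowest class above the limit, Act79B, a muscle actin, had 7.61, 7.76 and 7.43 after NELF dsRNA, against 5.55, 5.85 and 5.81 after LacZ dsRNA. Act79B rose 3.63-fold (log2 change 1.86, SE 0.24, limma adjusted p = 0.000132). Untreated cells had 7.02, 6.90 and 5.88, so that all 3 lay between the other groups. The gene net, a basic helix-loop-helix repressor, rose 2.89-fold, with 6.17, 6.08 and 6.13 after NELF dsRNA, against 4.44, 4.71 and 4.64 after LacZ dsRNA. In this class the falls included 2 genes of unnamed function whose NELF dsRNA values all lay below the limit, CG5966 (at least 2.07-fold lower) and CG30197 (at least 1.23-fold lower).

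In the class above it, CG2247 rose 3.04-fold, with 8.60, 8.63 and 8.41 after NELF dsRNA, against 6.83, 6.78 and 7.22 after LacZ dsRNA. Ip6k, which encodes inositol hexakisphosphate kinase, rose 2.06-fold (log2 change 1.05, SE 0.13), and CG12868 rose 2.38-fold. Beside the targets, the largest falls there were CG46491 at 5.0-fold (log2 change -2.32, SE 0.16) and Ugt35A1, a glucuronosyl transferase, at 3.86-fold.

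Among genes of the third class, oaf, which encodes a secreted protein, had 9.43, 9.33 and 9.18 after NELF dsRNA, against 7.93, 7.93 and 8.0 after LacZ dsRNA. It rose 2.57-fold (log2 change 1.36, SE 0.09, limma adjusted p = 1.21e-07). The gene scaf, which encodes a secreted protein of the serine protease homolog family, rose by 0.73 on the log2 scale (SE 0.10). Falls in that class were led by PCB, described with metabolism, Mnr at 3.53-fold and CG16985 at 3.03-fold.

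In the class of highest starting level QC, which encodes glutaminyl cyclase, an enzyme that modifies the N-termini of secreted peptides, had 8.78, 8.85 and 8.96 after NELF dsRNA, against 10.45, 10.42 and 10.38 after LacZ dsRNA. It fell 2.93-fold (log2 change -1.55, SE 0.07), the smallest adjusted p named here (limma adjusted p = 3.52e-09). CG5399 fell 4.69-fold, CG15209 3.63-fold and CG13117 3.14-fold. Rdh1, a retinol dehydrogenase gene by its name, rose 1.88-fold, with 10.47, 10.52 and 10.57 after NELF dsRNA, against 9.67, 9.64 and 9.52 after LacZ dsRNA. Irbp18, which encodes a bZIP DNA-binding protein, rose 1.73-fold (log2 change 0.79, SE 0.09).

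By function, 2192 of the tested genes belonged to at least 1 of 83 gene lists, which were gathered into broader classes. Of these, 98 were lower and 56 higher, against 202 lower and 119 higher of the 6910 genes in no list. At least 1 member was called in 58 lists and none in 25. The share called lower was 17.1% in hemocyte classes (6 of 35), 14.6% in immunity (18 of 123), 12.7% in lysosomal genes (8 of 63), 11.9% in adhesion and matrix (8 of 67), 10.6% in detoxification (18 of 170) and 7.81% in metabolism (20 of 256), beside 3.3% of all genes. The share called higher was 8.57% in hemocyte classes (3 of 35), 7.06% in detoxification (12 of 170), 5.97% in adhesion and matrix (4 of 67), 5.49% in the cell cycle class with DNA repair (10 of 182), 4% in the cytoskeleton (3 of 75) and 3.52% in metabolism (9 of 256), beside 1.92% of all genes. These shares include genes below the detection limit, which were rarely called. In the third and highest classes of starting level together, 3.7% of all genes were higher and 5.54% lower. Rises there were near that share in metabolism (4.17%) and the cytoskeleton (4.44%), and 0 of 26 in adhesion and matrix. They were 8.14% in the cell cycle class. Falls there were 21.1% in immunity, 18.8% in lysosomal genes and 8.93% in metabolism.

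Leaving out each array in turn gave 17 to 21 falls in immunity and 7 to 10 in lysosomal genes. In metabolism the falls were 12 without NELF dsRNA array 2, 8 without LacZ dsRNA array 2 and 13 without LacZ dsRNA array 3, and the rises were 5 without any of NELF dsRNA array 1, NELF dsRNA array 2 and LacZ dsRNA array 2. The cell cycle class had 5 rises without any single NELF dsRNA array and 4 without LacZ dsRNA array 2. Without the variance trend the falls were 12 in immunity, 7 in detoxification, 5 in lysosomal genes, 3 in adhesion and matrix, 3 in metabolism and 0 in hemocyte classes. The rises were then 5 in detoxification, 3 in adhesion and matrix and 1 each in the cell cycle class, metabolism, the cytoskeleton and hemocyte classes.

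**Figure D3:**
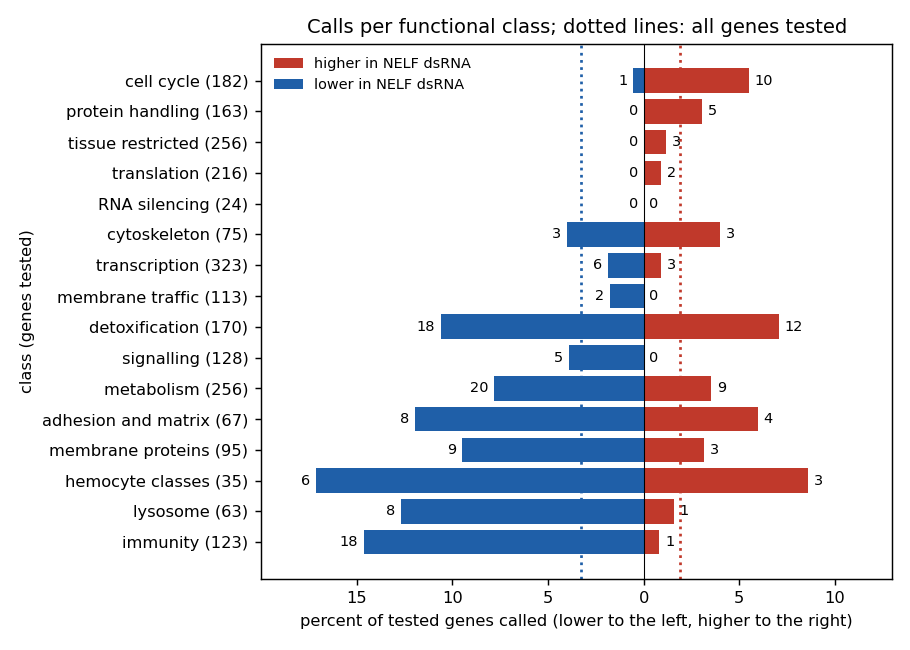
Bars give the percent of tested genes in each functional class of at least 20 genes called higher (right of 0) or lower (left of 0) in NELF dsRNA against LacZ dsRNA, with counts at the bar ends, genes tested in brackets and dotted lines at the shares of all genes (1.92% higher and 3.3% lower). Immunity (18 of 123 lower), lysosomal genes (8 of 63 lower) and hemocyte classes (6 of 35 lower) extend furthest to the left, and detoxification extends both ways.

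Among 9 enzymes that degrade glycosaminoglycans, the sulfated sugar chains of proteoglycans, 4 fell and 0 rose by limma (5 and 0 at an unadjusted p under 0.05), 8 of 9 values lay below 0, and the median log2 change was -0.44, beside 0.01 over all genes. Sgsh, a lysosomal sulfatase acting on heparan sulfate, had 7.78, 7.72 and 7.66 after NELF dsRNA, against 8.97, 9.08 and 8.95 after LacZ dsRNA. The arrays within each group lay close together, and Sgsh fell 2.43-fold (log2 change -1.28, SE 0.08, limma adjusted p = 1.27e-07). Ids, iduronate sulfatase of the same pathway, had 5.87, 6.46 and 6.23 after NELF dsRNA, against 7.36, 7.37 and 7.60 after LacZ dsRNA, and fell 2.39-fold. Naglu, which removes N-acetylglucosamine from heparan sulfate, had 5.79, 6.45 and 5.34 after NELF dsRNA, against 7.08, 7.18 and 7.27 after LacZ dsRNA. It fell 2.48-fold, with the wider spread on the NELF dsRNA side. The remaining call, Sulf1, an extracellular sulfatase and not a lysosomal enzyme, fell by 0.44 on the log2 scale (SE 0.08) but differed by -0.01 from untreated cells. Without the variance trend the calls of Naglu and Sulf1 were lost.

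Other lysosomal hydrolases and lipid transfer proteins had 4 falls and 1 rise among 31. Hexo2, a hexosaminidase, had 9.84, 9.81 and 9.68 after NELF dsRNA, against 10.77, 10.81 and 10.91 after LacZ dsRNA, and fell 2.08-fold (log2 change -1.06, SE 0.06, limma adjusted p = 8.93e-08). Npc2b, of the NPC2 family of sterol-binding proteins, had 6.91, 7.18 and 6.75 after NELF dsRNA, against 8.64, 8.28 and 7.99 after LacZ dsRNA. Every NELF dsRNA array lay below every LacZ dsRNA array, and Npc2b fell 2.56-fold (log2 change -1.36, SE 0.16). CtsB, cathepsin B, fell by 0.46 on the log2 scale (SE 0.06). The rise was Swim, a secreted cathepsin-like protein that binds Wingless, at 2.26-fold. None of the 23 tested subunits of the vacuolar ATPase, which acidifies lysosomes, was called by limma or passed an unadjusted p of 0.05. Of these 23, 15 had a LacZ dsRNA mean above the detection limit, and 1 was called lower without LacZ dsRNA array 1. In a list of this size, 0 calls do not show that levels were unchanged.

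Transporters of small molecules in the plasma membrane and mitochondria had 7 falls and 0 rises among 62 solute carriers (12 and 2 at an unadjusted p under 0.05 by limma). The gene mnd, a light chain of an amino acid exchanger, had 8.03, 7.77 and 7.71 after NELF dsRNA, against 8.80, 8.92 and 9.15 after LacZ dsRNA, and fell 2.18-fold (log2 change -1.12, SE 0.11). The gene path, an amino acid carrier tied to growth in flies, had 4.91, 4.83 and 4.42 after NELF dsRNA, against 6.20, 6.24 and 6.52 after LacZ dsRNA. It fell 3.03-fold, and all its arrays stayed above the detection limit. Sfxn1-3, a sideroflexin known in human cells as a mitochondrial serine carrier, had 4.03 and 2.81 on 2 NELF dsRNA arrays and no value on array 2, against 6.28, 6.05 and 5.97 after LacZ dsRNA. It was at least 4.73-fold lower, and could not be tested without NELF dsRNA array 1 or array 3. MFS10, a major facilitator, fell by 0.82 on the log2 scale, and Dic1, a dicarboxylate carrier of the mitochondrial list, by 0.40. Without NELF dsRNA array 3 or LacZ dsRNA array 2 the falls in this list numbered 4. Export pumps of the ABC family went up in 2 of 9, among them Mrp4 by 0.44 on the log2 scale (SE 0.08), and the list had 1 rise without any of NELF dsRNA array 2, NELF dsRNA array 3, LacZ dsRNA array 2 and LacZ dsRNA array 3.

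Immune genes fell at several steps, from recognition to effectors. In the Toll pathway, through which flies answer fungi and Gram-positive bacteria, 4 of 20 fell and 0 rose by limma (7 and 1 at an unadjusted p under 0.05). GNBP3, a receptor for fungal glucans, had 6.72, 6.64 and 6.86 after NELF dsRNA, against 7.52, 7.70 and 7.78 after LacZ dsRNA, and fell 1.90-fold (log2 change -0.93, SE 0.11). The protease grass, which relays recognition to the pathway, fell 1.60-fold, and spz5, a ligand of the Spätzle family, was at least 2.97-fold lower. The receptor gene Tl had 6.16, 6.10 and 6.09 after NELF dsRNA, against 7.22, 6.97 and 7.05 after LacZ dsRNA. The 3 NELF dsRNA arrays were nearly equal and below the others, and Tl fell 1.95-fold (log2 change -0.96, SE 0.13), while its dimmer probe set, at -0.15, did not pass.

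Of 28 immune recognition genes, which share GNBP3 with the Toll list and eater, drpr and Itgbn with other lists, 6 fell and 0 rose by limma (9 and 1 at an unadjusted p under 0.05). The phagocytosis receptor gene eater had 5.01, 3.80 and 2.89 after NELF dsRNA, against 6.60, 6.36 and 6.71 after LacZ dsRNA. It fell 6.31-fold (log2 change -2.66, SE 0.40), and array 3 of the NELF dsRNA group lay below the detection limit. The engulfment receptor gene drpr had 7.46, 7.03 and 7.71 after NELF dsRNA, against 8.34, 8.54 and 8.76 after LacZ dsRNA, and fell 2.22-fold. GNBP2 fell by 0.50 on the log2 scale. In the list of antimicrobial peptides 3 of 11 fell and 0 rose by limma (5 and 1 at an unadjusted p under 0.05), with a median log2 change of -0.55. CecB, a cecropin, had 6.11, 5.89 and 6.08 after NELF dsRNA, against 7.33, 7.02 and 7.08 after LacZ dsRNA, and fell 2.17-fold (log2 change -1.12, SE 0.14). The small secreted peptide edin had 9.36, 9.58 and 9.43 after NELF dsRNA, against 10.64, 10.22 and 10.10 after LacZ dsRNA, and fell 1.82-fold. DptB, a diptericin, fell 2.31-fold, while Drs (log2 change -0.55) and AttD (log2 change -0.37) did not pass.

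The Imd pathway, which answers Gram-negative bacteria, had 1 fall among 20 (3 without LacZ dsRNA array 1, 2 without NELF dsRNA array 1 or LacZ dsRNA array 3). It was pirk, an inhibitor of the pathway, by 0.99 on the log2 scale (SE 0.12). The pathway's NF-kB factor Rel, at -0.26, did not pass (limma adjusted p = 0.056). Serpins, inhibitors of proteases, went both ways with 2 falls and 1 rise among 14. Spn42Dc had 6.85, 6.70 and 6.71 after NELF dsRNA, against 8.08, 7.78 and 7.94 after LacZ dsRNA, and fell 2.26-fold, and Spn77Ba, which restrains melanization in the trachea, fell 2.09-fold. Spn88Ea had 11.39, 11.37 and 11.45 after NELF dsRNA, against 10.27, 10.61 and 10.70 after LacZ dsRNA. All its NELF dsRNA arrays lay above the others, and it rose 1.84-fold (log2 change 0.88, SE 0.09). Among 10 melanization genes 1 fell, the dopachrome-converting enzyme gene yellow-f, by 0.93 on the log2 scale. The calls of eater, drpr, Itgbn and NimC4 were lost without the variance trend, which left 2 falls in immune recognition, GNBP2 and GNBP3. NimC4 also lost its call without NELF dsRNA array 2, NELF dsRNA array 3 or LacZ dsRNA array 1.

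Markers of hemocyte classes did not move together. Of 21 plasmatocyte genes 3 fell and 2 rose, and of 14 crystal cell and lamellocyte genes 3 fell and 1 rose, the filamin gene cher, which was called without LacZ dsRNA array 3 and not without any other single array. The falls were eater and drpr, described above, Fer1HCH, a ferritin subunit and not a marker by function (not called without NELF dsRNA array 1 or 3 or LacZ dsRNA array 2 or 3), and Itgbn, ItgaPS4 and betaTub60D, described below. Without the variance trend none of these 6 falls was called. Pxn, a peroxidase of the extracellular matrix, had 8.55, 8.49 and 8.37 after NELF dsRNA, against 7.35, 7.67 and 7.74 after LacZ dsRNA, and rose 1.85-fold (log2 change 0.88, SE 0.11). Untreated cells had 8.28, 8.25 and 8.02 of Pxn, closer to the NELF dsRNA arrays than to the LacZ dsRNA arrays, and the difference from untreated cells did not pass (limma adjusted p = 0.18). Nplp2 rose 1.32-fold, with 12.76, 12.72 and 12.81 after NELF dsRNA, against 12.39, 12.31 and 12.39 after LacZ dsRNA. The summed linear intensity of the 12 plasmatocyte markers was 8896 to 9622 after NELF dsRNA, 7463 to 7884 after LacZ dsRNA and 7746 to 8573 in untreated cells. Nplp2, by far the brightest of the 12, made up most of each sum, so the sum does not describe the markers as a set. Only PPO2 and PPO3 of 6 crystal cell and lamellocyte markers lay above the limit, and the sums of the 6 were 80.9 to 117 after NELF dsRNA and 88.9 to 125 after LacZ dsRNA. In RNA from whole cultures, fewer cells of a kind and less RNA per cell cannot be told apart, and the part of such shifts in the immune genes was not tested.

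Genes of adhesion and the matrix followed with 8 falls and 4 rises among 67. The rises included bbg and Pxn, described above. The list of basement membrane and matrix remodelling went both ways, with 4 falls (15.4%) and 3 rises (11.5%) among 26. At an unadjusted p under 0.05 by limma it had 6 lower and 7 higher, and its log2 changes ran from -1.69 to 3.56. All 5 integrin genes had values below 0 and 2 of them fell. Itgbn, also in the recognition list, a beta integrin used in phagocytosis, had 4.78, 3.76 and 4.33 after NELF dsRNA, against 5.81, 5.76 and 5.83 after LacZ dsRNA, and fell 2.85-fold. ItgaPS4 fell 3.12-fold, and without LacZ dsRNA array 3 it did not pass (limma adjusted p = 0.051), which left 1 integrin called. For Itgbn and for ItgaPS4, only 2 of the 3 NELF dsRNA arrays lay above the detection limit. The transmembrane proteoglycan gene kon, of muscle attachment, had 4.42, 3.50 and 3.47 after NELF dsRNA, against 6.37, 5.89 and 5.81 after LacZ dsRNA. Its NELF dsRNA arrays straddled the limit, and kon fell 4.69-fold (log2 change -2.23, SE 0.28). The secreted matrix protein gene fat-spondin had 9.04, 8.96 and 8.78 after NELF dsRNA, against 10.03, 10.11 and 10.20 after LacZ dsRNA, and fell 2.28-fold (log2 change -1.19, SE 0.08). The metalloproteinase gene Mmp2 fell 3.22-fold, while its dimmer probe set, at -0.80, did not pass. AdamTS-A, another metalloproteinase, fell 1.69-fold.

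The cytoskeleton had 3 falls and 3 rises among 75 (4% each, beside 3.3% and 1.92% of all genes). It had 1 rise without NELF dsRNA array 3 or LacZ dsRNA array 2. Gel, which encodes the actin-severing protein gelsolin, had 9.01, 9.09 and 9.0 after NELF dsRNA, against 9.77, 9.87 and 10.10 after LacZ dsRNA. It fell 1.84-fold (log2 change -0.88, SE 0.08). The tubulin gene betaTub97EF had 7.02, 6.38 and 6.44 after NELF dsRNA, against 7.85, 7.89 and 7.87 after LacZ dsRNA, and fell 2.38-fold, while betaTub60D fell by 0.41 on the log2 scale. The calls of Itgbn, ItgaPS4, AdamTS-A, Nplp2 and betaTub60D were lost without the variance trend.

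Enzymes of detoxification were called often in both directions. Cytochrome P450 genes, which oxidize foreign compounds and hormones, had 8 falls and 1 rise among 54, and 5 falls without NELF dsRNA array 1 or LacZ dsRNA array 2. Cyp12d1-d, a mitochondrial P450, had 7.36, 7.17 and 7.27 after NELF dsRNA, against 8.76, 8.73 and 8.75 after LacZ dsRNA. The LacZ dsRNA arrays were almost identical, and Cyp12d1-d fell 2.79-fold (log2 change -1.48, SE 0.09, limma adjusted p = 8.93e-08). Cyp4d20 had 4.91, 5.15 and 4.38 after NELF dsRNA, against 6.61, 6.83 and 6.75 after LacZ dsRNA, and fell 3.78-fold. Cyp9c1 fell 1.99-fold and Cyp310a1 2.81-fold. Of 23 glucuronosyl transferases, which conjugate sugars to small molecules, 2 fell and 0 rose by limma (2 and 0 at an unadjusted p under 0.05). Ugt317A1 had 6.08, 6.35 and 6.28 after NELF dsRNA, against 7.36, 7.57 and 7.46 after LacZ dsRNA, and fell 2.33-fold.

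Glutathione S-transferases, which conjugate glutathione to reactive compounds, had 7 rises and 3 falls among 32. GstD1 had 12.09, 12.12 and 12.12 after NELF dsRNA, against 11.24, 11.21 and 11.15 after LacZ dsRNA. Its 6 arrays formed a tight pair of groups, and it rose 1.88-fold (log2 change 0.91, SE 0.06, limma adjusted p = 8.93e-08). GstE6 had 12.31, 12.31 and 12.40 after NELF dsRNA, against 11.83, 11.77 and 11.72 after LacZ dsRNA, and rose 1.48-fold. GstD5 had 7.75, 8.05 and 7.77 after NELF dsRNA, against 6.57, 6.43 and 6.31 after LacZ dsRNA. The groups lay more than 1 unit apart, and GstD5 rose 2.68-fold (log2 change 1.42, SE 0.15). GstE11 rose 1.55-fold and GstT1 1.38-fold. The omega-class gene GstO3 went the other way, with 8.39, 8.36 and 8.82 after NELF dsRNA, against 9.56, 9.34 and 9.37 after LacZ dsRNA, and fell 1.86-fold. The list had 1 fall without any of NELF dsRNA array 1, NELF dsRNA array 2 and LacZ dsRNA array 1.

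Antioxidant genes had 3 rises and 1 fall among 24. Gtpx, a glutathione peroxidase homolog, rose 1.26-fold, and Irc, the immune-regulated catalase, fell 1.39-fold. The list had 1 rise without any of NELF dsRNA array 2, NELF dsRNA array 3 and LacZ dsRNA array 2. Metal-handling genes had 3 falls and 0 rises among 23 by limma (4 and 0 at an unadjusted p under 0.05). The metallothionein gene MtnA fell 1.55-fold, with 9.98, 10.42 and 10.24 after NELF dsRNA, against 10.88, 10.79 and 10.85 after LacZ dsRNA, and Irp-1A, which binds iron-responsive elements, fell 1.34-fold against LacZ dsRNA but differed by -0.05 from untreated cells. The calls of GstT1, Gtpx, Irc, MtnA and Irp-1A were lost without the variance trend.

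PCB, pyruvate carboxylase, feeds pyruvate into the citric acid cycle and gluconeogenesis. It had 6.75, 6.81 and 6.50 after NELF dsRNA, against 8.83, 8.68 and 8.89 after LacZ dsRNA, and fell 4.32-fold (log2 change -2.11, SE 0.10, limma adjusted p = 1.34e-08). Its dimmer probe set changed by 0.01 and did not pass. Pepck1, the next enzyme of gluconeogenesis, had 6.84, 6.80 and 6.46 after NELF dsRNA, against 4.61, 5.12 and 5.81 after LacZ dsRNA, and rose 2.87-fold (log2 change 1.52, SE 0.26). Consecutive enzymes of the same route were thus called in opposite directions. The list of glycolysis and gluconeogenesis had 5 falls and 1 rise among 22, and the falls were 2 without any of NELF dsRNA array 1, NELF dsRNA array 3 and LacZ dsRNA array 3 and 1 without LacZ dsRNA array 2. Among those 5 falls, Hph, a hydroxylase that senses oxygen, and bnl, a fibroblast growth factor, are not glycolytic enzymes. The dimmer probe sets of Hph (-0.04) and bnl (-0.10) did not pass. Hph lost its call without NELF dsRNA array 1, NELF dsRNA array 2, LacZ dsRNA array 2 or LacZ dsRNA array 3, and bnl without NELF dsRNA array 1, NELF dsRNA array 3 or LacZ dsRNA array 2.

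Amino acid metabolism had 6 falls and 1 rise among 38, and 2 falls without NELF dsRNA array 2 or LacZ dsRNA array 2. Gs1, a glutamine synthetase, had 8.67, 8.39 and 8.91 after NELF dsRNA, against 9.30, 9.58 and 9.81 after LacZ dsRNA, and fell 1.87-fold. Adgf-A, an extracellular adenosine deaminase, fell 1.73-fold, and su(r), which degrades pyrimidines, rose 1.43-fold, with neither of them an enzyme of amino acids. In lipid synthesis, with 4 falls and 2 rises among 33, Agpat2, an acyltransferase of phospholipid synthesis, had 9.11, 8.95 and 9.23 after NELF dsRNA, against 9.58, 9.63 and 9.76 after LacZ dsRNA, and fell 1.48-fold. The lipid falls numbered 7 without LacZ dsRNA array 1 and 2 without LacZ dsRNA array 2 or array 3, and the rises 0 without any single NELF dsRNA array or LacZ dsRNA array 2 and 1 without LacZ dsRNA array 3. ATPCL, ATP citrate lyase, was called lower at the detection limit, with 2.30, -1.12 and -1.46 after NELF dsRNA, against 3.52, 3.97 and 3.83 after LacZ dsRNA. Its NELF dsRNA arrays and 1 LacZ dsRNA array lay below the limit, so its fitted log2 change of -3.87 is no measure of size, and its call was kept only without NELF dsRNA array 1. Mitochondrial calls were small: Ogdh, of the citric acid cycle, fell 1.30-fold, SdhB, of succinate dehydrogenase, rose 1.28-fold, and Letm1, of the inner membrane, rose 1.45-fold. Against untreated cells Ogdh, SdhB and Letm1 did not pass (limma adjusted p = 0.086, 0.14 and 0.061). Ant2, an adenine nucleotide carrier, had 7.40, 7.40 and 7.47 after NELF dsRNA, against 6.66, 6.46 and 6.42 after LacZ dsRNA, and rose 1.88-fold. Of 70 genes of the respiratory chain SdhB was the only call, and of 71 mitochondrial ribosomal proteins 1 was called. Of the calls named for metabolism, those of PCB and Ant2 were kept without the variance trend and the others were lost.

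Signalling genes had 5 falls and 0 rises among 128 by limma (15 and 11 at an unadjusted p under 0.05). The share called lower was 3.91%, near the 3.3% of all genes, so the falls below are of single genes. The gene numb, an inhibitor of Notch, had 7.06, 6.85 and 6.74 after NELF dsRNA, against 7.86, 7.87 and 8.06 after LacZ dsRNA, and fell 2.06-fold (log2 change -1.04, SE 0.11). The EGFR ligand gene grk had 7.62, 7.88 and 7.50 after NELF dsRNA, against 8.31, 8.49 and 8.28 after LacZ dsRNA, and fell 1.62-fold. The tumour necrosis factor ligand gene egr had 8.37, 8.04 and 8.19 after NELF dsRNA, against 8.92, 8.97 and 8.86 after LacZ dsRNA, and fell 1.64-fold. The groups did not overlap in any of these 3 genes. The stress kinase gene p38c fell 1.83-fold. Among 21 ecdysone response genes and nuclear receptors 3 fell and 0 rose by limma (4 and 1 at an unadjusted p under 0.05): ImpE3, induced by ecdysone, had 4.21, 4.04 and 4.60 after NELF dsRNA, against 6.37, 6.33 and 6.28 after LacZ dsRNA, and fell 4.12-fold (log2 change -2.04, SE 0.20). The gene br, a zinc finger regulator, fell 2.99-fold, with no call in its 4 dimmer probe sets. The calls of p38c and br were lost without the variance trend.

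**Figure D4:**
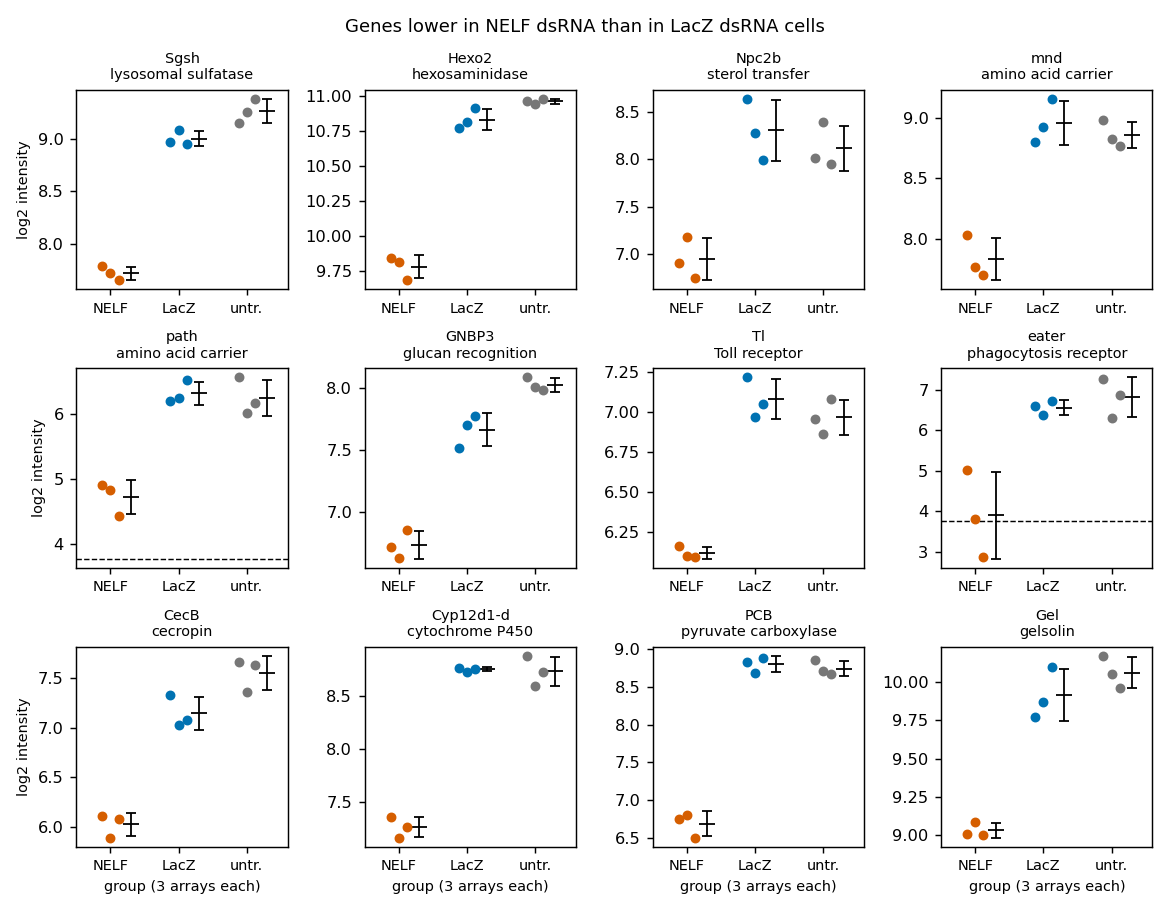
Log2 intensities of 12 genes called lower, 1 point per array, with the mean and SD beside each group of 3 arrays and a dashed line at the detection limit where it falls in the panel. In each panel the 3 NELF dsRNA arrays lie below all LacZ dsRNA and untreated arrays, as for PCB at 6.50 to 6.81 after NELF dsRNA against 8.68 to 8.89 after LacZ dsRNA.

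DNA repair had 5 rises and 0 falls among 43 by limma (11 and 4 at an unadjusted p under 0.05), and 3 rises without NELF dsRNA array 2. Irbp, the fly Ku70 of double-strand break repair, had 7.71, 7.60 and 7.68 after NELF dsRNA, against 6.99, 7.06 and 7.04 after LacZ dsRNA. The arrays of each group were within 0.2 units of each other, and Irbp rose 1.55-fold (log2 change 0.63, SE 0.11, limma adjusted p = 0.00227). Its partner Ku80 had 7.02, 7.21 and 6.97 after NELF dsRNA, against 5.76, 6.48 and 6.39 after LacZ dsRNA, and rose 1.81-fold, with a limma adjusted p of 0.057 without NELF dsRNA array 2. The nuclease gene mre11 had 9.45, 9.55 and 9.39 after NELF dsRNA, against 8.99, 9.20 and 8.96 after LacZ dsRNA, and rose 1.33-fold. PolZ2, a subunit of the translesion polymerase zeta, rose 1.41-fold. Against untreated cells the difference of PolZ2 did not pass (limma adjusted p = 0.052). The calls of Ku80, mre11 and PolZ2 were lost without the variance trend.

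Of 71 genes of mitosis and cytokinesis 4 rose and 0 fell by limma (9 and 2 at an unadjusted p under 0.05). None of these rises was called without LacZ dsRNA array 2, 1 was called without any single NELF dsRNA array and 2 without LacZ dsRNA array 1. Of 42 DNA replication genes 1 rose (2.38%, beside 1.92% of all genes), RPA1, which binds single-stranded DNA, by 1.20-fold. Of 31 cyclins and cell cycle kinases 1 fell (3.23%, beside 3.3% of all genes), CycE, the cyclin of entry into replication, by 1.24-fold. Both shares lay near those of all genes, so these are calls of single genes. Against untreated cells RPA1 did not pass (limma adjusted p = 0.051), and CycE differed by 0.03 on the log2 scale (limma adjusted p = 0.90). RPA1 kept its call only without LacZ dsRNA array 3, and CycE lost it whichever array was left out.

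A list of 22 genes for iron-sulfur clusters, heme and related mitochondrial cofactors was put together after the values had been seen, so its counts describe these arrays only. In it 10 rose and 0 fell by limma (12 and 0 at an unadjusted p under 0.05), 20 of 22 values lay above 0, and the median log2 change was 0.27. Without NELF dsRNA array 2 or array 3, 6 rose. Nfs1, the cysteine desulfurase that supplies sulfur to the clusters, had 10.26, 10.33 and 10.33 after NELF dsRNA, against 9.76, 9.91 and 9.76 after LacZ dsRNA. It rose 1.41-fold (log2 change 0.50, SE 0.07, limma adjusted p = 0.000207). Alr, a sulfhydryl oxidase of the space between the mitochondrial membranes, had 8.0, 8.17 and 7.94 after NELF dsRNA, against 7.51, 7.42 and 7.24 after LacZ dsRNA, and rose 1.57-fold. CIAPIN1, of cytosolic cluster assembly, had 9.95, 10.07 and 9.99 after NELF dsRNA, against 9.67, 9.58 and 9.45 after LacZ dsRNA, and rose 1.35-fold, while its dimmer probe set, at -0.14, did not pass. Rises of 1.28-fold and 1.29-fold were called for bcn92, a partner of Nfs1, and Cox17, a copper chaperone and so not a cluster or heme gene. Only the call of Nfs1 was kept without the variance trend.

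Among 30 heat shock and chaperone genes 3 rose and 0 fell by limma (8 and 0 at an unadjusted p under 0.05). The small heat shock gene Hsp26 had 9.49, 9.52 and 9.24 after NELF dsRNA, against 8.49, 8.33 and 8.45 after LacZ dsRNA. Its groups lay well apart and it rose 1.99-fold (log2 change 0.99, SE 0.12, limma adjusted p = 9.05e-05). The other rises were Sgt, for which the LacZ dsRNA arrays stood apart, and Roe1, a cofactor of mitochondrial Hsp70, which rose by 0.59 on the log2 scale. Roe1 did not pass without NELF dsRNA array 3 (limma adjusted p = 0.096) or against untreated cells (limma adjusted p = 0.13), and Hsp26 alone was called without the variance trend. Hsp68, at 0.45, did not pass. Of 34 proteasome subunits 27 had values above 0 and 1 was called, Prosalpha6, which rose 1.24-fold. Prosalpha6 did not pass against untreated cells (limma adjusted p = 0.067). Among translation genes eIF6, a factor of ribosome assembly, rose 1.34-fold, with 10.05, 10.09 and 10.12 after NELF dsRNA, against 9.76, 9.69 and 9.55 after LacZ dsRNA. The odorant-binding protein gene Obp44a rose 2.77-fold, with 5.85, 6.18 and 5.85 after NELF dsRNA, against 4.42, 4.52 and 4.54 after LacZ dsRNA. Gli, listed with the carboxylesterases by sequence but a protein of septate junctions, had 7.52, 7.51 and 7.49 after NELF dsRNA, against 6.50, 6.40 and 6.49 after LacZ dsRNA, and rose 2.05-fold. Mf, a myofilin of muscle, rose 1.46-fold. The calls of Prosalpha6, eIF6 and Mf were lost without the variance trend.

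**Figure D5:**
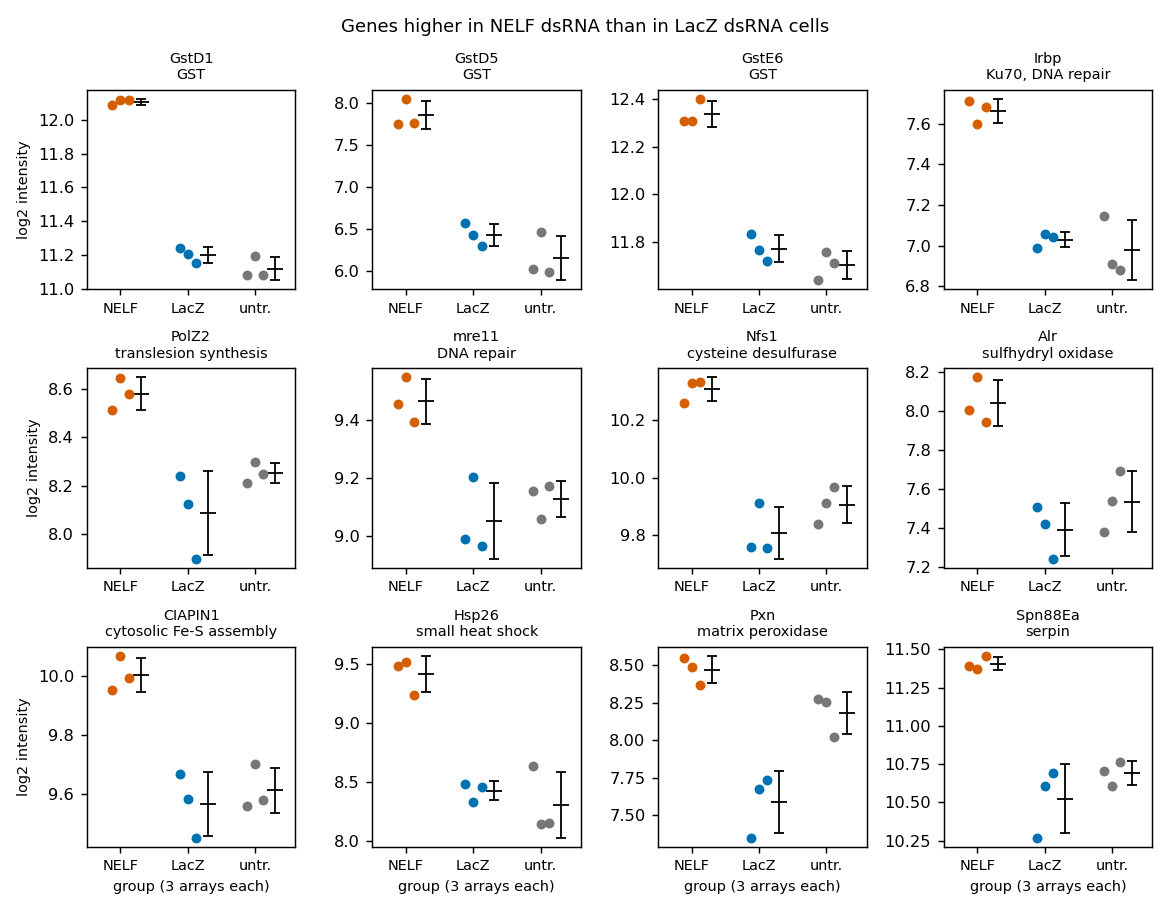
Log2 intensities of 12 genes called higher, 1 point per array, with the mean and SD beside each group of 3 arrays. The 3 NELF dsRNA arrays lie above all LacZ dsRNA arrays in each panel, as for GstD1 at 12.09 to 12.12 after NELF dsRNA against 11.15 to 11.24 after LacZ dsRNA, while the untreated arrays of Pxn lie between the other groups.

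The machinery that surrounds NELF in transcription was counted in the same way. Of 21 pausing and elongation factors 1 was called (4.76%), near the 5.22% of all genes. It was Ssrp of the histone chaperone FACT, which rose 1.20-fold and did not pass without any single NELF dsRNA array or LacZ dsRNA array 2. The DSIF subunit Spt5 (log2 change 0.07) and the P-TEFb subunits Cdk9 (0.29) and CycT (0.56) did not pass. No gene was called by limma among 33 of RNA polymerase II and the general factors, 26 of Mediator, 14 of Integrator and 40 chromatin remodellers and modifiers. At an unadjusted p under 0.05 these lists had 9, 3, 0 and 2 genes. Of the 9 among RNA polymerase II and the general factors, 7 were higher and 2 lower, more for the size of the list than in the whole set. Without LacZ dsRNA array 3, 2 genes of that list were called higher. In lists of these sizes, 0 calls do not show that levels were unchanged. In Integrator 12 of 14 values lay below 0, with a median log2 change of -0.09.

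Several functions with well-measured transcripts had 0 calls by limma. They were 38 cytosolic ribosomal proteins, 32 tRNA synthetases, 51 genes of the ubiquitin pathway, 48 of vesicle coats and tethers, 44 SNAREs and Vps proteins and 24 of RNA interference. At an unadjusted p under 0.05 they held 2, 2, 11, 6, 3 and 7 genes, beside 709 higher and 827 lower of all 9102 genes. For their size, the ubiquitin pathway and RNA interference held more such genes than the whole set did. The inducible transcription factors of activity and stress, 20 genes with paused members such as kay and Jra, had 0 calls and 5 at an unadjusted p under 0.05, with log2 changes of 0.03 for kay and 0.06 for Jra. None of 7 reference genes was called or passed an unadjusted p of 0.05, with log2 changes of -0.02 for RpL32, 0.03 for Gapdh1, 0.04 for betaTub56D, 0.08 for Cyp1, 0.14 for Tbp, 0.30 for 14-3-3zeta and 0.85 for eEF1alpha2, whose mean lay below the detection limit in both groups. Tissue-restricted genes of cuticle, smell, eggshell, muscle, neurons and the germline, 256 in all, had 3 rises and 0 falls by limma (8 and 6 at an unadjusted p under 0.05), and 203 of them lay below the detection limit after LacZ dsRNA.

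In the gene order of the RefSeq annotation, 22 of 6336 neighbouring pairs with both genes tested were lower together, 4 were higher together and 14 were called in opposite directions. A called-lower neighbour stood beside 41 of 273 genes called lower (15%) and beside 367 of 7642 genes not called (4.8%). A called-higher neighbour stood beside 7 of 165 genes called higher (4.24%) and 249 of 7642 not called (3.26%). The pairs named next lay outside the rule for named genes and were chosen after their values were seen. They included related genes in tandem: the secreted growth factor genes Idgf2 and Idgf3 fell by 0.76 and 0.88 on the log2 scale, the peptide genes Gbp1 and Gbp2 by 1.01 and 0.74, and the neprilysin-like genes Nepl19 and Nepl20 by 1.53 and 0.84. Arc1 and Arc2, related to retroviral Gag proteins, rose by 0.31 and 0.78, beside Tfb1, which rose by 0.47. Whether tandem relatives share probes was not tested.

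Probe sets without values on most arrays of a group could not be tested. There were 65 with values on all 3 NELF dsRNA arrays and on 0 LacZ dsRNA arrays, and 74 with the reverse, and in each set only 1 had a mean above the detection limit. Ect3 had 4.94, 5.54 and 2.16 after NELF dsRNA and no value after LacZ dsRNA, with 1 untreated value of 3.46. Oat, ornithine aminotransferase by its name, had no value after NELF dsRNA and 4.26, 3.65 and 4.83 after LacZ dsRNA, with 6.59, 3.66 and 6.08 in untreated cells.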

How the data were processed

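Total RNA of S2 cells was hybridized to Affymetrix Drosophila Genome 2.0 arrays, 1 sample per array. Per the labels' protocols, 1 µg of RNA was amplified with a 3′ kit, 10 µg of cRNA was hybridized for 16 h, the medium held 10% serum, and data came from GeneChip Operating Software 1.2.0.037, and the series' design text adds Rosetta Resolver 6.0. The values used are the authors' deposited log2 intensities, 1 for each probe set on each array. The base of the logarithm was inferred from the values (-16.3 to 13.6), and how probe sets were summarized and normalized is not given in the sources used here. Empty cells, 34179 of 161091 (21.2%), were kept as missing. The 9 array medians, taken over 9266 probe sets without empty cells, differed by at most 0.0253, and no further normalization was applied. The number of arrays limits the precision, and no scan dates were used, so no batch was tested.

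Of 17899 probe sets, 13086 had 1 gene in the platform annotation, 389 had several and 4424 were unnamed here. Identifiers of 12988 matched the RefSeq gene table (Release 6 plus ISO1 MT), used for names and gene order only. No sequences or coordinates were used. Each gene was represented by its probe set with the highest mean over the 9 arrays.

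A linear model was fitted with limma 3.58.1 under R 4.3.3 (lmFit, then eBayes with a variance trend) on all 9 arrays with 1 mean per group, where both groups had at least 2 values, with Benjamini-Hochberg adjustment over 12975 probe sets and a threshold of 0.05. The fit was tested on simulated data with the spreads and empty cells of these arrays. It called 30 of 67 probe sets changed 1.5-fold, 50 of 67 changed 2-fold and 48 of 66 changed 4-fold, with 6 false calls. Many real changes would thus be missed. The detection limit was the 95th percentile of 95 control probe sets. A group mean below it was replaced by a bound, and the change given as at least N-fold. Samples with the same number did not deviate together across the groups (correlations of their deviations from -0.108 to 0.097), so the numbers were not taken to pair them. Differently numbered arrays reached 0.185 (LacZ dsRNA array 1 with NELF dsRNA array 3) and -0.150 (LacZ dsRNA array 2 with NELF dsRNA array 3). LacZ dsRNA array 1 and NELF dsRNA array 3 held the fewest values of their groups, and a shared source of their deviations was not tested.

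The text draws its named genes from the NELF subunits and reference genes, up to 3 called genes per list with the smallest adjusted p, and the 4 largest rises and falls per class of starting level among called genes whose arrays did not overlap, some of which are given only in the counts. It also draws on up to 5 genes with values in 1 group only. Other called list members named (spz5, GNBP2, Sulf1, Swim, MFS10, Cyp310a1, GstO3, GstE11, GstT1, Ku80, AdamTS-A, cher, NimC4, Cox17 and bcn92) and uncalled members named lie outside that rule and were chosen after their values were seen. The comparison and the 83 lists were chosen with earlier results of these data known.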

Additional observations from a re-analysis of the deposited data

How the results depend on the processing

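Over all probe sets, 240 were called higher and 352 lower. Without the variance trend these counts were 75 and 153, and with a change of at least 1.5-fold required as well they were 91 and 234. Leaving out each of the 6 arrays in turn gave 158 to 314 higher and 254 to 383 lower. With the replicate block, the counts were 211 and 320, and the pairing by number is not borne out by the arrays. The other settings (6 arrays alone, quantile normalization, median centring, probe sets with values on all 6 arrays or a mean above the detection limit, 2 floors, and the 2 arrays with fewest values left out) kept both counts within 1.5 times. Of 139 called genes named by the rule, 71 kept their call without the trend, 127 with the block, 135 under quantile normalization and 110 to 125 with 1 array left out, and none reversed in these fits. When a gene's probe sets were averaged instead of taking the brightest, cib changed sign to -0.173. The promoter word counts were not run, as no promoter table was used. Arrays give no depth: below the detection limit the median standard error of 0.952 on the log2 scale left 6 of 2891 genes called.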
